A study of Mus musculus with 161 samples.

Results

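A set of 335 chromatin sites lost accessibility when mouse macrophages were polarized to M1 and had regained it 72 h after the M1 stimulus was washed away. They are 335 of 150203 sites of open chromatin, or 0.223%. A site belongs to the set if its accessibility in unpolarized M0 cells was at least 3 times that in 24 h M1 cells, its M0 mean was at least 5 CPM (1 CPM is 1 count in 1000000 of the library total), and its mean after removal of the stimulus was at least 0.8 times the M0 mean. Each ratio was taken between means of 3 libraries plus 0.5 CPM. The sites were thus chosen by the accessibility measured in the 9 ATAC libraries, and their levels in these libraries are given as a description, with no test. RNA was measured in other libraries, which the rule did not use, and is tested.

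Bone marrow cells of C57BL/6J mice aged 6 to 10 weeks were grown into bone marrow-derived macrophages (BMDMs) in RPMI-1640 with 20% horse serum and the growth factor MCSF (macrophage colony stimulating factor) at 20 ng/mL, the base medium of every group. On day 7 the M1 cells were given IFN-γ at 25 ng/mL together with LPS at 100 ng/mL, the M2 cells were given IL-4 at 25 ng/mL, and the M0 cells stayed in base medium. After 24 h, some M1 cells were washed and returned to base medium for 72 h (72 h M1→M0, 96 h after the first stimulus). Others were kept in IFN-γ and LPS (72 h M1→M1) or moved to IL-4 (M1→M2). Some M2 cells were washed after 24 h and moved to IFN-γ and LPS (M2→M1). ATAC-seq, which counts fragments cut out of accessible DNA by a transposase, was run on 3 libraries of each of the unpolarized, M1 and washed groups (0 h M0, 24 h M1, 72 h M1→M0), and bulk RNA-seq on 145 libraries of 48 conditions. No ATAC library of 96 h M0, M2 or M1→M1 cells was analysed here, so accessibility after the wash was compared with M0 cells 96 h younger in culture. The labels call the libraries of a group biological replicates and do not say how many animals they came from, so p-values measure the spread between these libraries.

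Accessible sites away from gene starts are mostly enhancers, stretches of DNA where transcription factors displace nucleosomes and act on genes at a distance. In macrophages, the ETS factor PU.1 opens many of them together with C/EBP, AP-1, RUNX and interferon regulatory factors. Inflammatory stimuli open new sites through NF-kB, STAT and interferon regulatory factors, and they also close sites that were open in resting cells. Of 12 macrophage genes (such as the surface receptors Adgre1 and Csf1r), 11 were measured and none was at 0 in any group compared here. Their summed level, which follows the most abundant genes, was 12046 to 13545 FPKM in 0 h M0, 7665 to 9730 FPKM in 24 h M1 and 6333 to 8740 FPKM in 72 h M1→M0. By gene, 4 of the 11 were lower (background 25.2%) and 4 higher (background 35.9%) in 24 h M1 than in 0 h M0, with a median log2 change of -0.12. Against 96 h M0, 3 were lower (background 7.19%) and 1 higher (background 10.7%) in 72 h M1→M0, with a median of 0.03.

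The central 200 bases of 8 of the sites are printed from the GRCm38/mm10 genome (RefSeq), plus strand, with each match to a searched motif in capitals. Only windows free of annotated exons were printed. The sites near Tbl1xr1, Gramd1a and Inhba had some of the largest M0 to M1 ratios, and those near Kcnj16 and Apoc1 some of the highest M0 means. The sites near Chst11, Fam107b and Atp6v0d2 are those of genes whose RNA fell in M1.
Tbl1xr1 site, chr3:22238631-22238830: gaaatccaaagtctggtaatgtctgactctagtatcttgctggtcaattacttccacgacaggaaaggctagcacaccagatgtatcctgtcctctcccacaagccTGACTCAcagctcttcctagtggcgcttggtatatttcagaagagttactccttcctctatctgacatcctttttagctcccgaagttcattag
Gramd1a site, chr7:31156417-31156616: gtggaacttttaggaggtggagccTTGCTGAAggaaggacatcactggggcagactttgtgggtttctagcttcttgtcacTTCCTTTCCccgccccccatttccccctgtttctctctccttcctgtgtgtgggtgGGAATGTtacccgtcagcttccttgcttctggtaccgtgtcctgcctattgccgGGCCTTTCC
Inhba site, chr13:16261162-16261361: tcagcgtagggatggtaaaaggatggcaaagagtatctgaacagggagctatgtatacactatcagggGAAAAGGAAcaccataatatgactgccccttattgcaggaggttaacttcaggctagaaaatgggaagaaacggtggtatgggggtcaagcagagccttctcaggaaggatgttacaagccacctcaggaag
Kcnj16 site, chr11:110993561-110993760: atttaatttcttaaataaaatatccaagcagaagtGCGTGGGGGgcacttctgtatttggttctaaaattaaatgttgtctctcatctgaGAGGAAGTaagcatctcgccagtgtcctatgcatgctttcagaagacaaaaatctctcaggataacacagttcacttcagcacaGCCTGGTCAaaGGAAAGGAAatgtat
Apoc1 site, chr7:19694332-19694531: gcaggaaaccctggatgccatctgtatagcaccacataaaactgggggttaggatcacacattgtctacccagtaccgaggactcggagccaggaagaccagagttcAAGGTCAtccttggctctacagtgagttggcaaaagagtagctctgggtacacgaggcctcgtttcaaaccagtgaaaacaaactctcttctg
Chst11 site, chr10:83004821-83005020: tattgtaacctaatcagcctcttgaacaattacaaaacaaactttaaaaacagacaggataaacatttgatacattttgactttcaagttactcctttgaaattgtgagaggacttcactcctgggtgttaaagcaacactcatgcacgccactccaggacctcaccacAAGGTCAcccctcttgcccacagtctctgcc
Fam107b site, chr2:3621454-3621653: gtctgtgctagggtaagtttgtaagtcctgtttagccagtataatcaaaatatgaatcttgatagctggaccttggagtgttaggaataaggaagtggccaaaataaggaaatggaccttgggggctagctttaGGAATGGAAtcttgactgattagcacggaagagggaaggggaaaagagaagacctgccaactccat
Atp6v0d2 site, chr4:19873761-19873960: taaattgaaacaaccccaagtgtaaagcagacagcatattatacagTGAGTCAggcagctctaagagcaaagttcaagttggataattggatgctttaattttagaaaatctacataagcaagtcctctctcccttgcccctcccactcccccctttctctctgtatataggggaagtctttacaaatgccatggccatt

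The capitals mark an AP-1 motif (TGANTCA, where N is any base) at base 107 of the Tbl1xr1 window and at base 47 of the Atp6v0d2 window. The Kcnj16 window holds a PU.1 motif (GAGGAAGT) at base 91, an ETS-IRF composite (GGAANNGAA) at base 186, an EGR motif and, on the minus strand, an antioxidant response element. A composite also lies at base 135 of the Fam107b window. The Inhba window holds an interferon response core (GAAANNGAA) at base 69, and the Apoc1 and Chst11 windows a nuclear receptor motif (AAGGTCA) at bases 108 and 170. In the Gramd1a window the matches are a C/EBP motif (TTGCNNAA), a composite on the minus strand, a TEAD motif and an NF-kB motif (GGNNTTTCC) at its end. A match is a description of the letters in the window and not a bound site.

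Accessibility of the 335 sites was alike in the M0 and M1→M0 libraries and low in M1. The mean over the sites was 10.4, 9.80 and 10.5 CPM in the M0 libraries, 2.57, 3.39 and 1.45 CPM in the M1 libraries, and 10.1, 9.83 and 10.1 CPM in the M1→M0 libraries. The M1 libraries lay far below the others and also differed among themselves, with the second highest and the third lowest. In bulk samples, a site closed in some of the cells and one partly closed in all of them cannot be told apart, nor can fewer cells of a type and less RNA per cell.

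**Figure D1:**
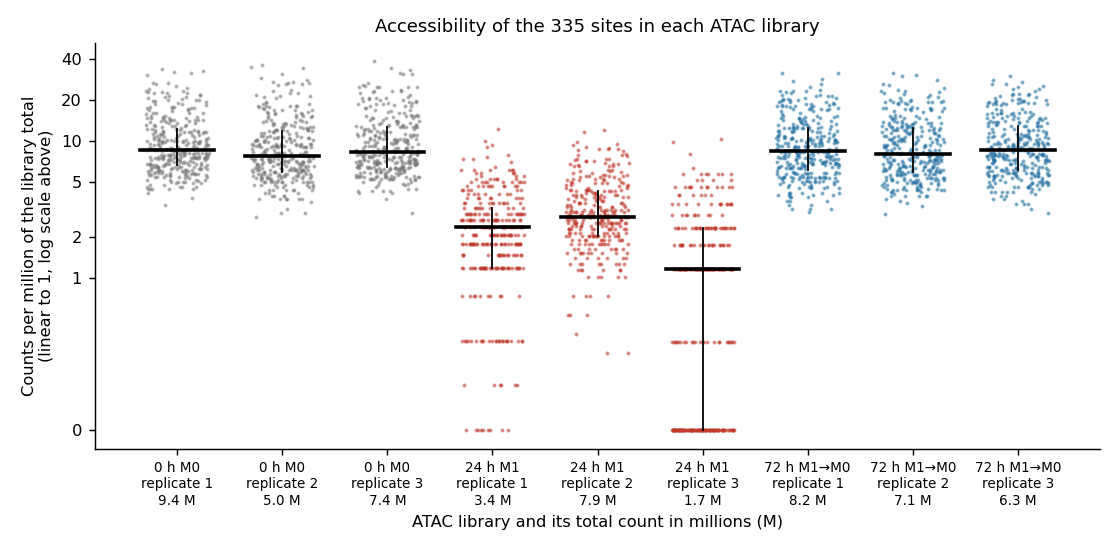
Accessibility of the 335 sites in each of the 9 ATAC libraries, in CPM on an axis that is linear to 1 and logarithmic above; each point is a site, thick bars are medians and thin bars span the quartiles. The library means over the sites lie between 9.80 and 10.5 CPM in the M0 and M1→M0 libraries and between 1.45 and 3.39 CPM in the M1 libraries, and the rows of points in M1 are whole counts at low depth.

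Depth limits the M1 values most. The library totals were 5004005 to 9354620 counts in M0, 3399222, 7917767 and 1730488 counts in the M1 libraries, and 6316477 to 8194529 counts in M1→M0. A site of the set had on average 8.73, 26.8 and 2.52 counts in the M1 libraries, and 106 sites had 0 counts in the third M1 library. Of the 3 M1 libraries, the second gave the highest value at 224 sites, the first at 88 and the third at 23. The set itself depends on these libraries. Chosen without the second M1 library the rule gave 768 sites, which included 325 of the 335, and without the third it gave 233, which included 164.

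The median site fell from 8.03 CPM in M0 to 1.93 CPM in M1 and stood at 8.23 CPM after the wash. The M0 to M1 ratio had a median of 3.42 and ran from 3.00 to 8.15; it was at least 4 at 76 sites and at least 5 at 26, and under 3.5 at 188. The M1→M0 to M0 ratio had a median of 0.941 and ran up to 1.76, with 121 sites at or above their M0 mean. At 335 of 335 sites every M0 library was above every M1 library, against 31.7% of the 48444 sites with an M0 mean of at least 5 CPM, and at 335 of 335 every M1→M0 library was above every M1 library, against 26.9%. By edgeR over all sites, 335 were called lower in M1 than in M0 (13.8% of all sites tested), 335 higher in M1→M0 than in M1 (9.93%), and 0 lower (8.14%) and 15 higher (10.0%) in M1→M0 than in M0. The rule used these contrasts, so nothing is read from these counts.

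The strongest closing was at a site 35539 bases downstream of the start of Tbl1xr1, a subunit of nuclear corepressor complexes. It had 7.27, 6.20 and 6.52 CPM in M0, 0, 1.14 and 0 CPM in M1, and 5.003, 7.18 and 4.91 CPM in M1→M0. The site was thus seen in M1 only in the deepest M1 library. A site in an exon of Plxnb1, a receptor for semaphorins, at chr9:109117692-109118673, had 19.5, 22.6 and 23.4 CPM in M0, 3.53, 4.42 and 0 CPM in M1, and 17.9, 19.4 and 21.4 CPM in M1→M0, with a ratio of 7.08. All M0 and M1→M0 libraries of this site lay above 15 CPM and all M1 libraries below 5 CPM. Of the 10 sites with the largest ratios, the last was the promoter site of Osbpl10 (5.90), a lipid transfer protein. This site, at chr9:114978026-114979472, gave 30.5, 31.2 and 31.1 CPM, then 4.71, 7.45 and 2.31 CPM, then 26.2, 27.9 and 26.3 CPM. Its M1→M0 libraries lay between the other groups and close to M0.

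Between Plxnb1 and Osbpl10 in ratio were sites near Gramd1a (6.91), which moves cholesterol between membranes, Vps13b (6.82), Gfra2 (6.52), a receptor for glial growth factors, an intergenic stretch of chromosome X (6.42), Zfp438 (6.16), Col4a1 (6.05), a basement membrane collagen, and Inhba (6.00), a subunit of activin. At the Gramd1a site, 2 of the 3 M1 libraries had 0 counts, as at Tbl1xr1. The Inhba site lies 246787 bases from that gene, beyond the 100 kb used here to link a site to a gene.

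Sites with high M0 accessibility rested on more counts. The highest was in an intron of Hs3st2, a heparan sulfate sulfotransferase, with 33.9, 35.8 and 38.4 CPM in M0, 7.94, 8.46 and 2.89 CPM in M1, and 27.6, 31.3 and 29.9 CPM in M1→M0. Each M1→M0 library was below each M0 library at this site, whose M1→M0 to M0 ratio was 0.824. Upstream of Apoc1, a gene of lipoproteins, the values were 31.3, 34.2 and 33.0 CPM, then 4.41, 9.35 and 4.62 CPM, then 31.5, 30.003 and 20.9 CPM, so that a single M1→M0 library stood apart. The RNA of Apoc1 did not return with this site. Its mean was 9.61 FPKM in 0 h M0, 1.58 FPKM in 24 h M1 and 0.448 FPKM in 72 h M1→M0, against 9.87 FPKM in 96 h M0. In the Kcnj16 window shown above, a site near a potassium channel gene, the site as a whole had 26.1, 29.0 and 30.7 CPM, then 10.0, 12.1 and 4.62 CPM, then 28.4, 25.6 and 28.2 CPM. A site near Qk, an RNA-binding protein, averaged 28.3, 8.05 and 25.5 CPM in the 3 conditions.

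Myc, a transcription factor that drives growth, had a pair of sites at its start. The site centred 70 bases upstream of the start (chr15:61984745-61985897) had 32.5, 34.97 and 34.1 CPM in M0, 12.4, 9.09 and 10.4 CPM in M1, and 31.5, 30.6 and 27.2 CPM in M1→M0. The neighbouring site (chr15:61986651-61987488) had 22.7, 21.8 and 21.7 CPM, then 6.47, 7.83 and 5.20 CPM, then 18.5, 19.4 and 19.5 CPM. The M1 libraries of both sites lay apart from the other 6, and each M1→M0 library lay below each M0 library. A further site of the set lay 119371 bases from the start of Myc, at the start of another annotated transcript, with means of 6.19, 1.60 and 6.05 CPM. Apart from Myc, the genes nearest to 2 sites were Dock9, Fam160b1, Itga2, Nol4 and Sema6d.

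At 11 sites the M1→M0 mean was at least 1.5 times the M0 mean. The highest M1→M0 to M0 ratio, 1.76, was at the promoter of Ehd3, an endosomal trafficking gene, where the means were 5.63 CPM in M0, 0.982 CPM in M1 and 10.3 CPM in M1→M0. An intergenic site on the side of Lef1, a factor of Wnt signalling, followed with 6.84, 1.07 and 12.2 CPM. Both were chosen here after their values were seen.

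The thresholds cut through a continuous range. Just inside the limit of 3 was a site near Mrc2, with a ratio of 3.00 and means of 7.97, 2.32 and 6.43 CPM in M0, M1 and M1→M0, followed by sites near Usp6nl and Col14a1. Just outside were sites near Ifngr1, the IFN-γ receptor, with 6.86, 1.96 and 5.59 CPM, and near Armc2 and Egfem1. For the M0 minimum, the nearest sites inside were near Rnf180 (5.01 CPM), Ptger3 and Zfp423, and those outside near Dlg2 (4.98 CPM), Insc and Vangl2. For reopening, sites near Slc9a7, Lrrn4 and Tns1 were inside and sites near Gria3, Nkain3 and Hsd17b3 outside, all at 0.80 to 2 decimals.

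The choice of sites was also repeated with 1 replicate number left out of every condition, and the libraries left out were then read. Without number 1, 475 sites were chosen, 234 of them in the set, and in the libraries left out the median M0 to M1 ratio was 2.52 and the M1 value was below M0 at 99.2% of the sites, against 57.6% of all sites with an M0 mean of at least 5 CPM. Without number 2, 827 were chosen (270 in the set), with a ratio of 1.88 and M1 below M0 at 95.3% (58.7% of all such sites). Without number 3, 221 were chosen (136 in the set), with a ratio of 3.82 and M1 below M0 at 100% (58.0% of all such sites). The size of closing in libraries the choice had not used was thus smaller than the limit of 3 for numbers 1 and 2, while its direction was shared. The M1→M0 to M0 ratio in the libraries left out had medians of 0.970, 1.05 and 0.962.

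The 335 sites are 26.4% of the 1268 sites that closed in M1 by the same limits. The other 933 closed sites had a median M1→M0 to M0 ratio of 0.543, and 379 of them were still below 0.5 times their M0 mean. Base composition was compared as a description, with no test. The median GC content was 49.6% in the set, 52.2% in the other closed sites and 49.1% in all 48444 sites with an M0 mean of at least 5 CPM. Of the closed sites under 40% GC, 42.3% reopened, and of those at or above 65% GC, 12.96% did. Over all 48444 sites, the median log2 ratio of M1→M0 to M0 also moved with GC, from 0.26 under 40% to -0.29 at or above 65%, and the part of this in the choice of sites was not tested.

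**Figure D2:**
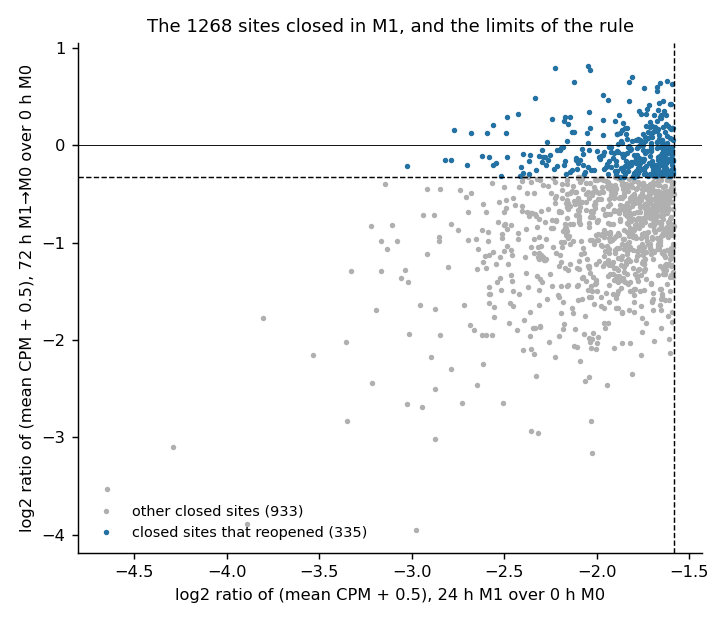
The 1268 sites that closed in M1, by the log2 ratio of 24 h M1 to 0 h M0 (horizontal) and of 72 h M1→M0 to 0 h M0 (vertical), each between means of 3 libraries plus 0.5 CPM; dashed lines are the limits of the rule and the solid line marks equal M1→M0 and M0. The 335 sites that reopened (blue) lie above the lower limit of 0.8 and crowd near the limit of 3, and the other 933 (grey) extend to far lower M1→M0 values.

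By place, 79 of the 335 sites (23.6%) were at promoters, 16 (4.78%) in exons, 131 (39.1%) in introns and 109 (32.5%) between genes. The matching shares of all 48444 sites with an M0 mean of at least 5 CPM were 28.6%, 4.399%, 38.3% and 28.6%. The median site of the set lay farther from genes, at a distance of 19836 bases to the nearest start of a protein-coding gene, against 11000 in all such sites and 12916 in the other closed sites. Promoter sites had a median M0 value of 9.65 CPM and M1→M0 to M0 ratio of 0.897, while intron sites had 7.85 CPM and 0.955, and intergenic sites 7.84 CPM and 0.953. Some of the promoter sites belong to genes whose RNA was not in the matrix, such as G0s2, an inhibitor of lipolysis, Cx3cl1, the chemokine fractalkine, and Gdf6, a growth factor of the BMP family, which were picked after their values were seen. At the G0s2 start the site had 15.4, 12.8 and 17.9 CPM in M0, 4.71, 7.96 and 1.16 CPM in M1, and 18.2, 12.8 and 14.2 CPM in M1→M0, so that the M0 and M1→M0 libraries overlapped. Chromosome X held 18 sites (5.37%), against 2.45% of all such sites and 2.36% of the other closed sites. In whole libraries, chromosome X took 24866 to 25607 CPM in M0, 21770 to 22882 CPM in M1 and 25984 to 26376 CPM in M1→M0, so that its total moved the same way as the sites.

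Motifs were searched on both strands in the central 200 bases of each site, 21 motifs in all. An ETS-IRF composite (GGAANNGAA), bound by PU.1 with Irf4 or Irf8, was in 38 of the 335 sites (11.3%), against 8.25% of the other closed sites, 8.61% of the sites with an M0 mean of at least 5 CPM and 9.19% of all sites. The PU.1 motif (GAGGAAGT) was in 31 (9.25%), against 7.18%, 6.90% and 7.66%. At least 1 of these motifs was in 64 sites (19.1%), against 14.4%, 14.6% and 16.0%. The GGAA of a PU.1 motif can also start a composite, and 5 sites held both motifs.

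The AP-1 motif (TGANTCA), bound by Fos and Jun dimers, was in 25 sites (7.46%), compared with 12.5% of the sites with an M0 mean of at least 5 CPM and 15.5% of all sites, but with 3.32% of the other closed sites. The antioxidant response element (TGACNNNGC), which can share TGAC with AP-1, was in 8.06%, against 6.54% of the other closed sites, 10.3% of the sites with an M0 mean of at least 5 CPM and 10.1% of all sites, and the next shares are given against these 3 sets in the same order. The interferon response core (GAAANNGAA) was in 4.78%, against 6.00%, 7.40% and 8.29%, and the STAT motif (TTCNNNGAA), which can share GAA with it, in 3.88%, against 4.82%, 5.61% and 5.89%. C/EBP (TTGCNNAA) was in 9.25%, against 9.003%, 10.1% and 11.5%, and NF-kB (GGNNTTTCC) in 3.58%, against 2.89%, 4.03% and 3.85%. An E2F motif (TTTCCCGC), found at genes of the cell cycle, was in 5 sites (1.49%), against 0.857%, 0.469% and 0.243%. The RUNX motif (TGTGGTT) was in 7.76%, against 7.93%, 6.35% and 7.37%. None of the 21 motifs was in 134 of the sites (40%), against 44.9% of the other closed sites, 37.1% of the sites with an M0 mean of at least 5 CPM and 32.8% of all sites.

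**Figure D3:**
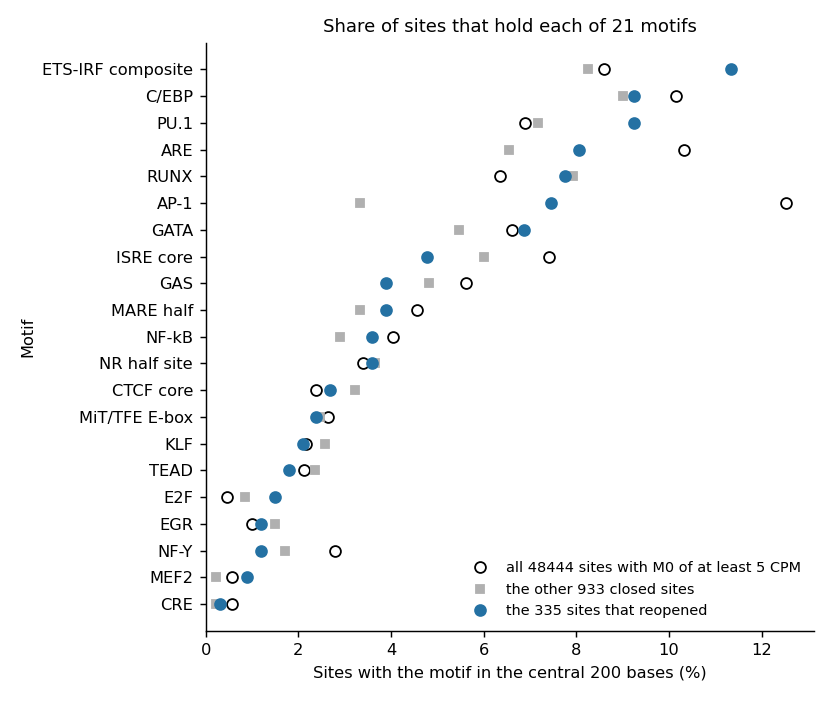
Share of sites, in percent, whose central 200 bases hold each of 21 motifs on either strand, for the 335 sites that reopened (filled blue circles), the other 933 closed sites (grey squares) and all 48444 sites with an M0 mean of at least 5 CPM (open circles). The 335 sites are to the right of both other groups for the ETS-IRF composite (11.3%) and PU.1 (9.25%), and lie between them for AP-1 (7.46%).

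The question for the RNA was whether genes near these sites moved with them. A site was linked to the protein-coding gene with the nearest start within 100 kb, which gave 260 genes for 267 sites and left 68 sites unlinked. Of these genes, 83 (nearest to 85 sites) were among the 8307 of the expression matrix, and the other 177 were not measured. Of the 83, 39 fell from 0 h M0 to 24 h M1 (background 25.2%) and 17 rose (background 35.9%) by limma with Benjamini-Hochberg adjusted p below 0.05, and the median log2 change was -0.38, where that of all genes was 0.10. Against 24 h M0 cells of equal time in culture, 36 were lower (background 25.2%) and 15 higher (background 35.4%), with a median of -0.39. Values for fold changes of RNA are differences of log2(FPKM + 1), which understate the change of low genes.

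The linked genes of the other 933 closed sites also leaned downward. Of 259 measured, 110 fell (42.5%) and 57 rose, with a median of -0.23. No test set the sets of linked genes against each other. With sites chosen without the third M1 ATAC library, 57 linked genes were measured and 23 of them fell (40.4%), with a median of -0.20. Markers of neutrophils and their precursors moved in the same contrast: 10 of 11 were lower in 24 h M1 than in 0 h M0 (background 25.2%), and 8 of 11 were lower and 1 higher than in 24 h M0 (background 25.2% and 35.4%), with a median log2 change of -1.29. Their summed level was 1040 to 2909 FPKM in 0 h M0, 23.5 to 363 FPKM in 24 h M0 and 64.8 to 80.8 FPKM in 24 h M1, where Elane, Ctsg and Retnlg were listed at 0. Their part in the result was not tested.

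The next genes are those with a site at the promoter. Of 58 genes with a site within 500 bases of their start, 9 were measured, and the rest were not in the matrix. In 24 h M1 against 0 h M0, 8 of the 9 fell (background 25.2%), with a median log2 change over the 9 of -1.79. The 8 include Tmem26, with means of only 0.865 and 0.135 FPKM, which passed 10 FPKM only in cells given IL-4. Myc had 20.3, 18.2 and 12.8 FPKM in the 0 h M0 libraries, 0.528, 0.647 and 1.62 FPKM in 24 h M1, and 13.6, 12.8 and 13.2 FPKM in 72 h M1→M0. The M1 libraries were apart from the rest, and the M1→M0 libraries lay within the range of 0 h M0 or just at its lower end. The fall was -3.25 ± 0.29 (SE, log2, adjusted p = 7.48e-18, limma), and the rise after the wash 2.92 ± 0.29 (adjusted p = 2.04e-15). Unstimulated cells of equal time in culture, 24 h M0, had 7.00, 7.23 and 11.1 FPKM, each below the 0 h M0 libraries, and against these M1 was lower by a log2 change of -2.30 (adjusted p = 3.49e-11).

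Fcrls, a scavenger receptor of resident macrophages, had 14.3, 5.97 and 8.70 FPKM in 0 h M0, 0.313, 0.636 and 0.782 FPKM in 24 h M1, and 3.76, 4.37 and 4.24 FPKM in 72 h M1→M0. The 3 groups did not overlap, with M1→M0 between the others. It fell by 2.69 on the log2 scale in M1 (adjusted p = 5.43e-12, limma), rose by 1.71 after the wash (adjusted p = 3.86e-06), and in M1→M0 was lower than in 96 h M0 by a log2 change of -2.02 (adjusted p = 1.27e-07). The accessibility of its promoter site (chr3:87263267-87264065) had returned to 9.03, 10.1 and 7.44 CPM, against 11.9, 7.59 and 10.5 CPM in M0 and 2.94, 1.64 and 0 CPM in M1. The M1→M0 and M0 libraries of the site overlapped, while those of its RNA did not.

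Plxdc2, a membrane protein with a plexin domain, had a like RNA pattern, with 13.3, 9.97 and 12.97 FPKM in 0 h M0, 1.84, 3.74 and 2.91 FPKM in 24 h M1, and 4.84, 7.52 and 8.10 FPKM in M1→M0. Its groups did not overlap, and RNA in M1→M0 was below that of 96 h M0, which had 24.6 to 31.6 FPKM (log2 change -1.96, adjusted p = 5.45e-07, limma). Its promoter site stood at 17.2, 14.8 and 18.5 CPM after the wash, against 21.9, 15.8 and 17.5 CPM in M0. Fkbp9, a protein-folding enzyme of the endoplasmic reticulum, was the last of the 3 promoter genes lower in M1→M0 than in 96 h M0 (-0.92 ± 0.14, adjusted p = 7.32e-08), with an M1→M0 to M0 ratio of its site of 1.03.

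For the other promoter genes, M1→M0 and 96 h M0 did not pass the test. Phgdh, which makes serine from an intermediate of glycolysis, fell in M1 by 2.88 on the log2 scale (adjusted p = 3.97e-14, limma), from 8.41, 7.77 and 10.3 FPKM to 0.141, 0.691 and 0.205 FPKM. The mean of Phgdh was also lower in 24 h M0 (2.99 FPKM) than in 0 h M0 (8.84 FPKM), though each 24 h M0 library was above each M1 library. Part of the difference to 0 h M0 was thus also seen without the stimulus. After the wash its libraries spread widely, at 1.32, 5.47 and 3.90 FPKM, around the 96 h M0 mean of 3.31 FPKM. Fam92a, a gene of the cilium, fell by 1.79 and rose by 1.93, and Cerkl, a ceramide kinase-like gene, fell by 1.21 and rose by 0.65. Tmem26 was low in M0 (0.865 FPKM) and M1 (0.135 FPKM), with a fall of 0.71, and stood at 74.1 FPKM in 24 h M2. Frmd4a, a scaffold protein at cell junctions, was the exception: it rose by 0.79 in M1 (adjusted p = 0.000206) and fell by 0.78 after the wash (adjusted p = 0.000301), while its promoter site closed from 5.99 to 1.5 CPM and reopened to 4.94 CPM.

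Among genes with more distal sites, Slco2b1, a transporter of organic anions, fell most. Its RNA was 29.6, 37.8 and 36.4 FPKM in 0 h M0, 0.0584, 0.363 and 0.337 FPKM in 24 h M1, and 7.10, 20.6 and 24.5 FPKM in M1→M0. The M1→M0 libraries varied widely and all lay below the M0 libraries. The fall was -4.83 ± 0.47 (SE, log2, adjusted p = 2.21e-16, limma), and M1→M0 was below 96 h M0 by a log2 change of -1.60 (adjusted p = 0.00444). Its site, 9876 bases upstream of the start, averaged 24.7 CPM in M0, 7.71 CPM in M1 and 19.9 CPM in M1→M0.

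Chst11, which sulfates chondroitin, fell from 18.3, 20.6 and 21.1 FPKM to 1.58, 2.81 and 2.95 FPKM in M1 and stood at 9.404, 13.1 and 9.15 FPKM in M1→M0. Its groups did not overlap, and the intron site whose sequence is shown above had means of 18.7, 5.01 and 15.3 CPM. Atp6v0d2, a subunit of the proton pump of lysosomes and osteoclasts, fell from 157, 197 and 208 FPKM to 30.8, 55.6 and 40.6 FPKM, and had 89.5, 151 and 144 FPKM in M1→M0, below the 307 to 330 FPKM of 96 h M0 (log2 change -1.34, adjusted p = 1.04e-10, limma). Its intergenic site with an AP-1 motif averaged 12.3, 3.34 and 10.0 CPM in the 3 ATAC conditions. Fam107b fell from 45.3, 27.9 and 36.2 FPKM to 8.12, 5.47 and 5.88 FPKM and had 14.9, 19.1 and 17.0 FPKM in M1→M0, against 15.8 to 21.6 FPKM in 96 h M0, which overlapped (adjusted p = 0.797).

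The rest of the 10 largest falls in genes of at least 20 FPKM were Rpl3 (-2.19), a ribosomal protein, Ybx3 (-1.37), which binds RNA, Actg1 (-1.34), a cytoplasmic actin, Gna12 (-1.11), a G protein subunit, Mef2a (-0.84), a transcription factor, and Hadhb (-0.77), an enzyme of fatty acid oxidation. Each rose again from 24 h M1 to 72 h M1→M0 by limma (background 25.0%), and none of the 6 differed from 96 h M0 at adjusted p below 0.05. These genes were picked for their fall into the same 24 h M1 libraries, so nothing is read from their rise. Ybx3 had a mean of 44.9 FPKM in 72 h M1→M1 and 39.2 FPKM in M1→M0, while the others were lower in M1→M1. The means of Ybx3 and Actg1 were also lower in 24 h M0 (28.8 and 383 FPKM) than in 0 h M0 (47.7 and 651 FPKM). Those of the others were similar or higher in 24 h M0. Gna12 had 55.3 to 73.1 FPKM in M1→M0, without overlap with 86.8 to 101 FPKM in 96 h M0. Rpl3 and Actg1 have near-identical copies elsewhere in the genome that can share reads, so their values are less certain. The Hadhb site had one of the larger ratios, 5.61, with 15.3, 14.4 and 11.9 CPM in M0, 0.588, 3.28 and 2.31 CPM in M1, and 16.5, 15.4 and 19.3 CPM in M1→M0, while RNA was 25.1, 27.1 and 35.2 FPKM, then 15.2, 16.7 and 17.6 FPKM, then 20.8, 34.9 and 34.8 FPKM.

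RNA of some linked genes moved in the direction opposite to the site. The 5 largest rises in M1 among genes of at least 20 FPKM were Cln8 (0.82) and Ostm1 (0.76), which serve lysosomes, Frmd4a (0.79), Ankrd50 (0.69), which recycles receptors from endosomes, and Stx16 (0.61), which fuses vesicles at the Golgi. Ankrd50 rose from 15.01, 13.2 and 16.4 FPKM to 23.1, 26.02 and 24.4 FPKM, while the site in its intron had 11.4, 12.0 and 10.9 CPM in M0, 2.65, 3.41 and 0 CPM in M1, and 14.2, 14.6 and 12.98 CPM in M1→M0. RNA and accessibility of this gene were each without overlap between M0 and M1, in opposite directions.

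The next comparison was between cells before and after the wash, and it shares the 24 h M1 libraries with the one against 0 h M0. From 24 h M1 to 72 h M1→M0, 38 of the 83 rose (background 25.0%) and 13 fell (background 32.1%), with a median log2 change of 0.29 (all genes -0.08). With sites chosen without the third M1 ATAC library, 18 of 57 rose (31.6%), with a median of 0.09. Against cells kept in IFN-γ and LPS for the same time, 32 of 83 were higher in M1→M0 (background 19.4%) and 5 lower (background 22.8%), with a median of 0.31. Of the 83, 41 were lower in 72 h M1→M1 than in 96 h M0 (background 22.3%).

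Washed cells were also compared with M0 cells of the same time in culture. Against 96 h M0 cells, 16 of the 83 linked genes were lower in 72 h M1→M0 (background 7.19%) and 1 was higher (background 10.7%), with a median of -0.09 (all genes 0.05). Of the 39 genes that had fallen in 24 h M1 against 0 h M0, 13 were lower in M1→M0 than in 96 h M0, 0 were higher and 26 did not pass the test. In cells kept in M1, 33 of the 39 were lower than in 96 h M0. No share over all genes that fell in M1 is set beside these counts of the 39. Nothing particular to the linked genes is therefore read from them. The contrasts with 96 h M0 and those with 0 h M0 and 24 h M1 share no M0 library, while the contrasts against 96 h M0 share those 4 libraries. All contrasts of M1→M0 use the same M1→M0 libraries, so they are not independent of each other.

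IL-4, which was not profiled by ATAC-seq here, moved the linked genes in both directions: 15 of 83 were lower (background 15.1%) and 17 higher (background 18.5%) in 24 h M2 than in 24 h M0, near the background. Without the first or the second 24 h M0 library, or without the second 24 h M2 library, 9 were lower. Of the 9 promoter genes, 5 were higher and 1, Cerkl, lower. On the log2 scale Fcrls rose by 2.29 (from a mean of 13.8 to 70.6 FPKM) and Myc by 1.96 (8.44 to 35.2 FPKM). Plxdc2 rose by 1.08 and Phgdh by 0.92. Tmem26, also counted among the 5, rose by 5.51. It passed 10 FPKM only in cells given IL-4 and is in the matrix through them, so nothing is read from its rise.

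The time course of RNA filled in the steps between these conditions. The median over the 83 linked genes, as the mean of the libraries' medians and relative to 0 h M0, moved from 0.01 after 6 h of M1 to -0.20 after 12 h and -0.36 after 24 h on the log2(FPKM + 1) scale. In washed cells it came to -0.33 by 25 h, -0.20 by 28 h, -0.19 by 48 h and -0.03 by 96 h, whereas cells kept in M1 gave -0.42 (48 h) and -0.31 (96 h). The 9 promoter genes gave -0.32 (6 h), -0.54 (12 h) and -1.73 (24 h of M1), stood at -2.003 at 36 h, 12 h after the wash, and reached -1.45 at 48 h and -0.34 at 96 h. Cells kept in M1 were at -1.47 at 96 h. Cells moved from M1 to IL-4 were at -0.28 at 96 h, and cells moved from M2 to M1 at -1.30. These medians are descriptions, with no test.

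**Figure D4:**
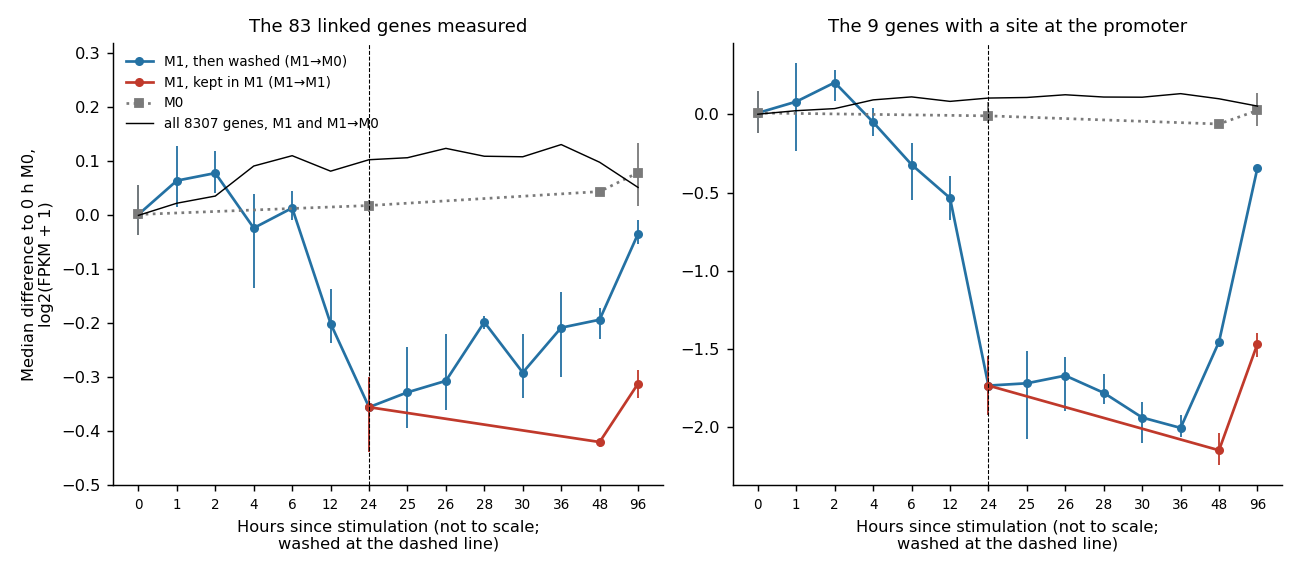
Median difference to 0 h M0, log2(FPKM + 1), over the 83 measured genes linked to the sites (left) and the 9 with a site within 500 bases of the start (right), by hours since stimulation (axis not to scale); points are means of the libraries' medians and bars run from the lowest to the highest library. The promoter genes reach -1.73 at 24 h of M1 and -0.34 at 96 h in washed cells (blue), against -1.47 in cells kept in M1 (red); the thin line is the median of all 8307 genes.

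Single genes had different courses, which are given as means without a test. Myc was at 47.1 ± 15.9 FPKM (SD, n = 3) at 2 h of M1, above the 17.1 ± 3.84 FPKM of 0 h, and at 3.81 ± 0.0495 FPKM at 4 h; after the wash it was at 6.14 ± 2.14 FPKM at 36 h and 9.24 ± 1.64 FPKM at 48 h. Chst11 was at 48.1 ± 9.17 FPKM at 4 h and 2.45 ± 0.753 FPKM at 24 h. Fcrls was at 2.73 ± 0.881 FPKM at 12 h and 0.577 ± 0.240 FPKM at 24 h, at 0.111 ± 0.0476 FPKM 24 h after the wash, and at 4.12 ± 0.323 FPKM 72 h after it. Mef2c, a transcription factor with a site 62361 bases downstream of its start, had 2.09 ± 0.188 FPKM at 4 h of M1, 8.31 ± 0.207 FPKM at 48 h of the washed course and 15.8 ± 3.34 FPKM at 96 h. Actg1 had 823 ± 279 FPKM at 12 h and 243 ± 49.5 FPKM at 24 h. The mean of Mef2c was thus already low at 4 h of M1, and that of Actg1 still as high at 12 h as at 0 h.

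**Figure D5:**
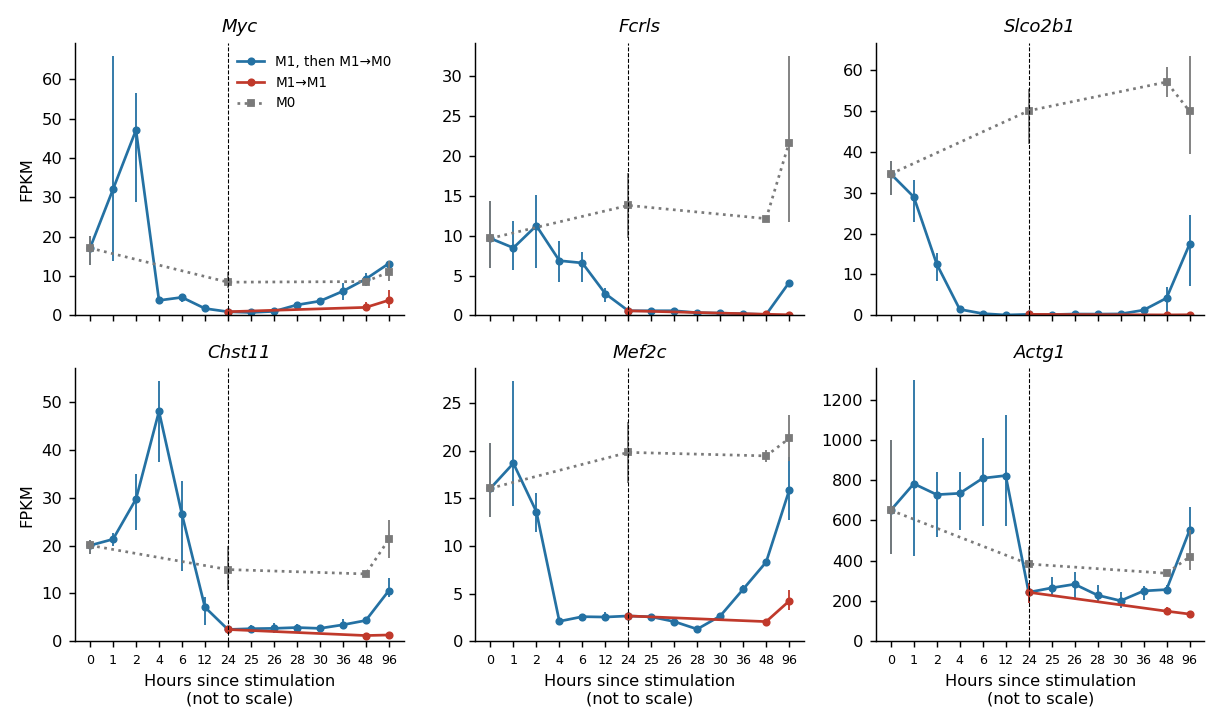
RNA of 6 linked genes in FPKM by hours since stimulation (axis not to scale): M1 and, after the wash at the dashed line, M1→M0 (blue), cells kept in M1 (red) and M0 (grey squares); points are means and bars run from the lowest to the highest of 2 to 4 libraries. All 6 were lower at 24 h of M1 than at 0 h, and at 96 h the means of Myc (13.2 FPKM), Mef2c (15.8 FPKM) and Actg1 (550 FPKM) in washed cells were within the range of 0 h M0, while those of Fcrls, Slco2b1 and Chst11 were below it. Mef2c in washed cells was still lower than in 96 h M0 (mean 21.3 FPKM, log2 change -0.42, adjusted p = 0.0336, limma).

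The sites were also set against lists of genes of macrophage programmes. The 22 lists of cell types and pathways included macrophage identity, M1 effectors, interferon-stimulated genes, the cell cycle, lysosomes, phagocytic receptors and cholesterol synthesis. Osteoclast genes (Atp6v0d2) and cholesterol synthesis (Insig1) each held 1 linked gene, and the others held none. Linked genes were 83 of all 8307 measured, so lists of up to 20 genes would hold few, and nothing is read from these counts. Insig1, which holds back the sterol-sensing factors, fell in M1 by 0.58 (adjusted p = 0.00991, limma), from 32.7, 30.4 and 25.3 FPKM to 20.3, 17.4 and 20.3 FPKM, and was lower in M1→M0 than in 96 h M0 (-0.76, adjusted p = 0.00167). Genes of the cell cycle, none of them linked to a site, moved in the same contrasts: 16 of 18 S phase genes and 19 of 20 genes of G2 and M fell in 24 h M1 against 0 h M0 (background 25.2%), and 17 and 19 rose after the wash (background 25.0%). The summed G2 and M level was 408 to 443 FPKM in 0 h M0, 23.6 to 36.7 FPKM in 24 h M1 and 105 to 687 FPKM in M1→M0. Its part in the accessibility of the sites was not tested.

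Genes of the factors that bind the searched motifs were compared as a list of 82, of which 74 were measured. In 24 h M1 against 0 h M0, 19 fell (background 25.2%) and 25 rose (background 35.9%), and from 24 h M1 to 72 h M1→M0, 29 fell (background 32.1%) and 16 rose (background 25.0%), so that the counts of this list were near those of all genes. Among those that rose most were factors of the interferon response: Irf7 by 7.53 (7.71 to 1601 FPKM), Batf2 by 4.95, Irf1 by 4.44 and Stat2 by 4.34. The largest falls were in Egr2 (-3.50 ± 0.38, SE, adjusted p = 3.45e-14, limma), Myc, Mef2c (-2.20), Pparg (-2.19), E2f8 (-2.09) and Cebpd (-1.98). Pparg, a nuclear receptor of lipid metabolism, had 15.4, 23.5 and 22.3 FPKM in 0 h M0 and 1.57, 6.58 and 4.11 FPKM in 24 h M1. In M1→M0 it had 13.7, 22.1 and 23.8 FPKM. Any part of these factors in the accessibility of the sites was not tested. Of the 82 listed factors, 5 (Mef2a, Mef2c, Bach2, Creb1 and Myc) were themselves nearest to a site of the set. The share among all protein-coding genes was not computed, so nothing is read from this count. Bach2 was not measured, and Creb1 had a log2 change of 0.04 in M1 (adjusted p = 0.884).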

How the data were processed

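The labels put every library in its condition, and 9 ATAC and 145 bulk RNA-seq libraries were used. The single-cell files were not used here. For ATAC-seq the authors aligned reads to mm10 with TopHat2 2.0.14, removed duplicates with SAMtools 1.9, called peaks on all libraries merged with MACS2 2.1.0 and deposited raw counts per peak from bedtools 2.28.0. Peaks shared by the groups thus hold every library, and no shift of reads for the transposase is described beyond the peak caller's own setting. For RNA-seq the authors deposited log10 values, log10(FPKM + 1), from Cuffnorm 2.2.2. The read depth behind FPKM is unknown, and all 8307 genes reach 10 FPKM in at least 1 library.

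Counts were divided by the library total. All sites with more than 10 counts in at least 1 library were fitted with edgeR 4.0.16 (quasi-likelihood, TMM), and RNA with limma 3.58.1 (trend, a mean for each of 48 conditions) on log2(FPKM + 1) in R 4.3.3. Tests were two-sided with Benjamini-Hochberg adjusted p below 0.05 over all features. The Cuffdiff test of the study needs the reads and was not run. Places and links came from GENCODE vM21 (a promoter is within 500 bases of any annotated start) and sequences from RefSeq, both GRCm38. In the annotation, 7920 of the 8307 gene symbols were found.

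The members and gene lists were chosen with earlier results of these data known. Named sites were the 10 with the largest M0 to M1 ratio, the 6 with the highest M0 mean and the 3 nearest each threshold. Named genes were linked genes within 500 bases that passed the test, the 10 largest falls and 5 largest rises at 20 FPKM or more, list members and the 12 factors that moved most, without predicted genes; 1 of these factors is not reported here.

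In tests on simulated data for 24 h M1 against 0 h M0, limma found 89% of changes of log2 1 and 100% of log2 2 over 8307 genes, and edgeR found 24% of 2-fold and 90% of 4-fold changes over 18096 sites. Few features were changed in these simulations, and the one for edgeR used a set dispersion not estimated from these data. The shares are thus not the sensitivity of the fits to the real data. Same-numbered libraries were correlated in their deviations from the group means between -0.14 and 0.10 in ATAC-seq, which does not pair them, and above 0.1 in every pair for 5 of the 6 RNA contrasts (0.13 to 0.69), the exception being 72 h M1→M0 against 96 h M0 (-0.16 to 0.37). Alternatives covered the limits of the rule, scaling, DESeq2 1.42.0, the distance of the link, the motif window, a replicate block and leaving out libraries.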

Additional observations from a re-analysis of the deposited data

Results flagged for a closer look

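Among the genes named here, 36 groups of 4 libraries (96 h M0) were searched for a library far from the rest, and 3 were found; chance gives about 1 in 20. In 96 h M0, Actg1 had 555 FPKM in 1 library and 355 to 384 FPKM in the other 3, Fkbp9 had 12.2 FPKM against 9.20 to 9.48 FPKM, and Hadhb had 41.8 FPKM against 29.2 to 30.9 FPKM.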

How the results depend on the processing

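The number of sites was 335 and became 568 with nothing added to the means, 2105 with a ratio of at least 2, 76 with a ratio of at least 4 and 121 with reopening of at least 1. With TMM-scaled library sizes it was 273, of which 263 were among the 335. Without single ATAC libraries or replicate numbers it ranged from 221 to 827: without the second M1 library it was 768, without the third 233, and without number 2 or 3 in every condition 827 or 221. All 14 alternatives kept the count of all sites changed in M1 within 1.5 times of 41547 (29907 to 42503, and without single libraries 32641 to 40761). The balance of directions depended on scaling. With TMM, 19028 sites were lower and 22519 higher in M1, and with library totals, which the rule uses, 22092 were lower and 20176 higher. The count changed in M1→M0 against M0, 25003, was 13020 with DESeq2 and 16451 without the first M0 library (16451 to 29413 without single libraries); the cause was not tested.

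Counts of linked genes called (39, 36, 38, 16, 32 and 15 for M1 against 0 h M0, M1 against 24 h M0, M1→M0 against M1, against 96 h M0 and against M1→M1, and M2 against 24 h M0) became 8, 8, 7, 3, 6 and 1 of the 9 genes with a start within 500 bases. Within 20 kb (48 genes), 23, 10, 21 and 7 were called in the last 4 contrasts, and 5 of 52 in M2 by gene body. Alternatives added after the data were seen chose the sites without the second M1 library, giving 97, 97, 100, 35, 86 and 47 of 229, or without the third, giving 23, 22, 18, 14, 17 and 11 of 57. These alternatives link other numbers of genes, as given; any other cause was not tested. Without single RNA libraries the counts were 34 to 40, 34 to 35, 29 to 36, 12 to 15, 27 to 32 and 9 to 12. In a 100-base window PU.1 was in 5.37% of the sites (3.73% of sites with an M0 mean of at least 5 CPM) and AP-1 in 3.28% (6.72%), and in a 400-base window 12.8% (10.8%) and 13.4% (20.5%).

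With a replicate block, the ATAC counts were 36492 and 21610 and the linked counts 43, 39, 40, 20, 33 and 21, all within 1.5 times of those without it. The pairing of the RNA numbers comes from the data, not the design. Depth limits the M1 accessibility values: the third M1 library had 0 counts at 106 of the sites, and intervals of such counts cover counting error only.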
